A study of Mus musculus with 4 samples.

Results

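The p53 response genes are genes that the transcription factor p53 is known to switch on, and 36 of them were followed in mouse liver after deletion of Cnot3. They were chosen by name as known p53 targets, at a time when earlier results of these data were known. Of the 36, 34 were measured by 64 probe sets, of which 61 passed the filter on low values, and these 34 stand among 16758 genes tested in all. Bax and Gdf15 were not analysed here, nor was the gene for p53 itself. Levels are given as log2 of the array intensity, and a difference is the Cnot3KO mean minus the Control mean on the same scale. The probe set with the highest mean stands for a gene unless another is named, and a level cannot be set against that of another gene.

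The livers came from C57BL/6 mice 4 weeks after birth, with 2 Control and 2 Cnot3KO livers and 1 array for each. Cnot3 belongs to the Ccr4-Not deadenylase complex, which trims mRNA poly(A) tails. Cnot3KO mice carried floxed Cnot3 alleles and Cre recombinase under the albumin promoter, so that the gene was deleted in hepatocytes while cells that do not make albumin kept it. Control livers are labelled wild type, and the study's methods also allow floxed or Alb-cre-carrying littermates as controls, without saying which were put on these arrays. The sex of these mice is not given, and in whole liver a change in the number of a cell type and a change in RNA per cell cannot be told apart. Levels of Cnot3 were 5.99 and 6.04 in Control against 5.15 and 5.30 in Cnot3KO, a difference of -0.79 ± 0.16 (SE, n = 2 per group, limma adjusted p = 0.0372). For a second Cnot3 probe set the difference was -0.40 (adjusted p = 0.218). Of 11 hepatocyte markers measured 0 were higher in Cnot3KO, against 12.2% of all genes tested, and 1 was lower (9.09%, against 4.64%). Their summed linear intensity was 78142 to 78329 in Control and 75430 to 78231 in Cnot3KO.

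In unstressed cells p53 is kept scarce by Mdm2, a ubiquitin ligase that marks it for destruction and is itself a p53 target, so that the pathway limits itself. Damage to DNA and other stresses release p53, which then binds DNA as a tetramer and raises genes that halt the cell cycle, repair DNA, adjust metabolism or start apoptosis. In liver the pathway is known for its response to toxins, to faulty cell division and to regeneration after injury.

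The sequence that p53 recognises has adjoining half-sites of 10 bases each. Promoters with a close match are shown as a description of the members, which were chosen as known p53 targets. The window ran from 250 bases before to 50 bases after each RefSeq start site (GRCm38.p6), and it was searched for the 20-base p53 consensus with no spacer, allowing 2 bases off outside the fixed C and G of each half-site. This pattern is its own reverse complement, so that both strands were read at once. A promoter was in the table for 26 of the 34 measured genes. The sites are printed 5′ to 3′ on the strand of the gene, with the 20-base match in capitals and 5 bases on each side in lower case.
Cdkn1a: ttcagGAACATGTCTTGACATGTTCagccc
Ccng1: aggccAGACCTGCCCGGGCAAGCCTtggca
Gtse1: accggGAGCAAGTTGGGGCTTGCCTctgac
Rps27l: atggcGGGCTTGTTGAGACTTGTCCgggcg
Ckap2: tctgaAGACATGTCCTGACTTGTCAagcct

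The 30 bases printed for Cdkn1a, flanks included, are at chr17:29090923-29090952 on the + strand. The match in them starts 51 bases before the start site of the searched window. All such distances are from the start site of the window, and a gene may have other start sites. The Ccng1 stretch is at chr11:40755457-40755486 on the - strand, with its match 195 bases before the start. The Gtse1 stretch is at chr15:85859940-85859969 on the + strand, and its match begins 1 base before the start, so that it runs into the transcribed part. For Rps27l the stretch is at chr9:66946291-66946320 on the + strand, with the match 117 bases before the start. For Ckap2 it is at chr8:22185998-22186027 on the - strand, with the match 203 bases before the start. The first 4 matches are 1 base off the consensus and that of Ckap2 is 2 bases off. Such a match was held by 5 of these 26 genes (19.2%) and by 106 of all 27025 genes with a promoter in the table (0.392%), or 107 of its 32851 promoters (0.326%). Of the 5 genes, Ccng1, Gtse1 and Ckap2 were higher in Cnot3KO and Cdkn1a and Rps27l did not pass the test. Over all 34 measured members 35.3% were higher, against 12.2% of all genes tested. Whether a match goes with a rise was not tested. Because the members were chosen as known p53 targets, the higher share of matches among them may follow from that choice and is no independent result. A match of letters is no evidence of binding, and sites farther from the start or in introns were outside the window.

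Of the 34 p53 response genes 12 were higher in Cnot3KO (35.3%), against 12.2% of all genes tested, and 1 was lower (2.94%), against 4.64% of all genes. The other 21 did not pass. The genes that rose were Ccng1, Plk2, Psrc1, Gtse1 and Ckap2 of the cell cycle group, Mdm2 of the feedback group, Pmaip1, Eda2r, Apaf1, Aen and Phlda3 of the death group, and the repair polymerase Polk. The gene that fell was Perp. The median difference was 0.75 over the 34 genes and 0.00 over all genes. Both Cnot3KO arrays lay above both Control arrays for 26 genes (76.5%), against 34.8% of all genes. Both lay below for 3 genes, Plk3, Perp and Ei24, against 30.3% of all genes. The groups overlapped for Gadd45a, Mdm4, Fas, Trp53inp1 and Ddb2, and for 5850 of all 16758 genes. More than 4-fold higher were 9 of the 34 genes, against 493 of all 16758, and 8 of the 9 passed the test, the exception being Cdkn1a. Whichever array was left out, 9 of the 13 calls held, those of Plk2, Psrc1, Gtse1, Ckap2, Pmaip1, Eda2r, Apaf1, Phlda3 and Polk.

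**Figure D1:**
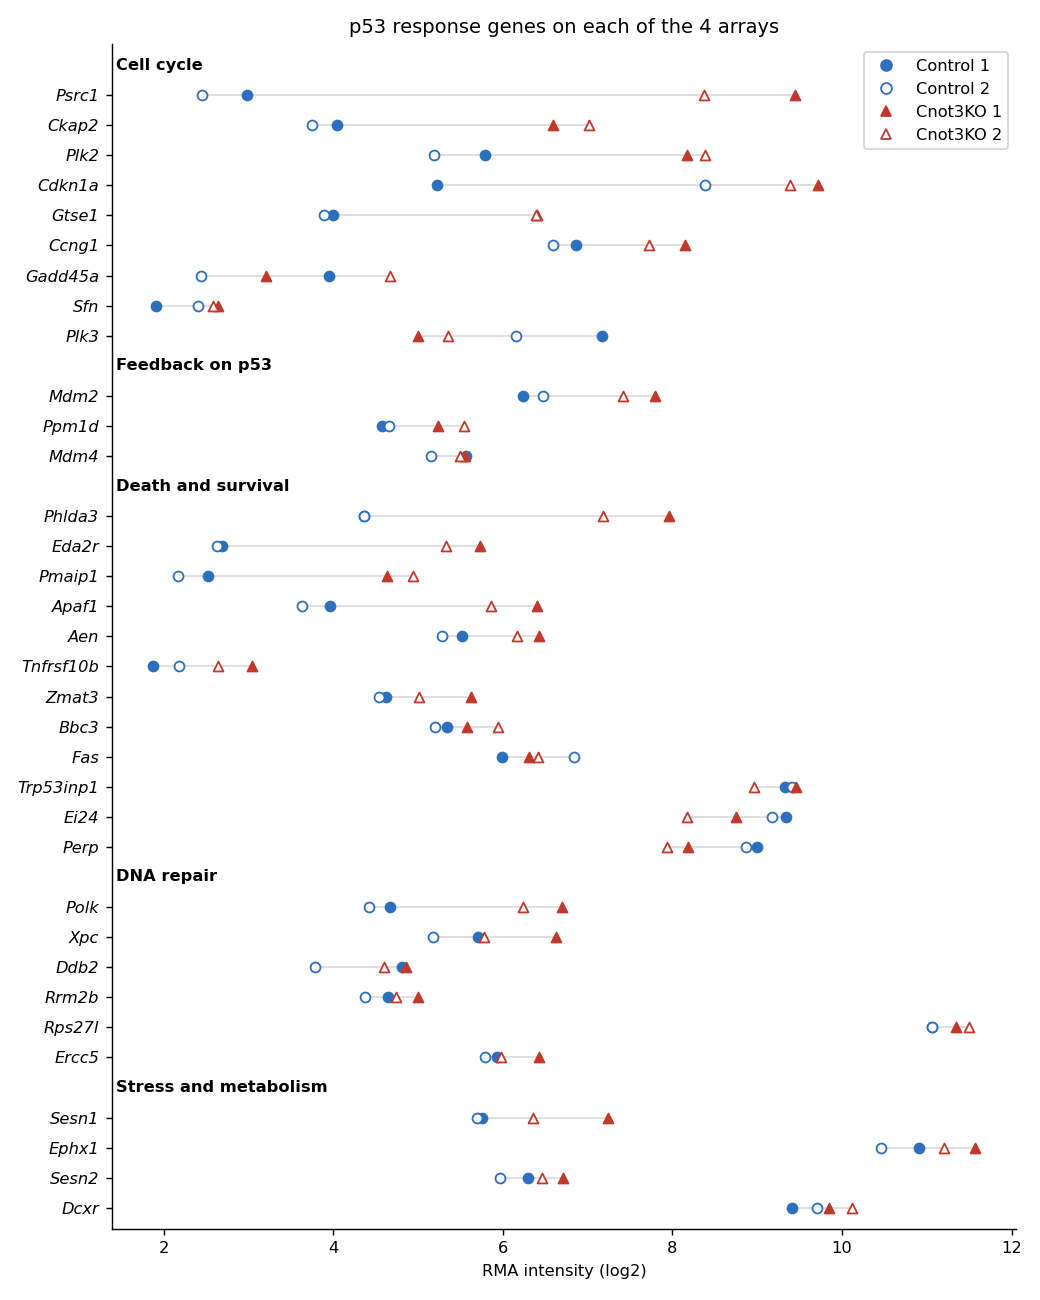
Log2 intensity of the 34 measured p53 response genes on each of the 4 arrays, grouped by role. Circles are Control and triangles Cnot3KO, filled for replicate 1 and open for replicate 2. The groups stand far apart for Psrc1 and Phlda3, while the open and filled circles of Cdkn1a lie 3.16 apart.

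**Figure D2:**
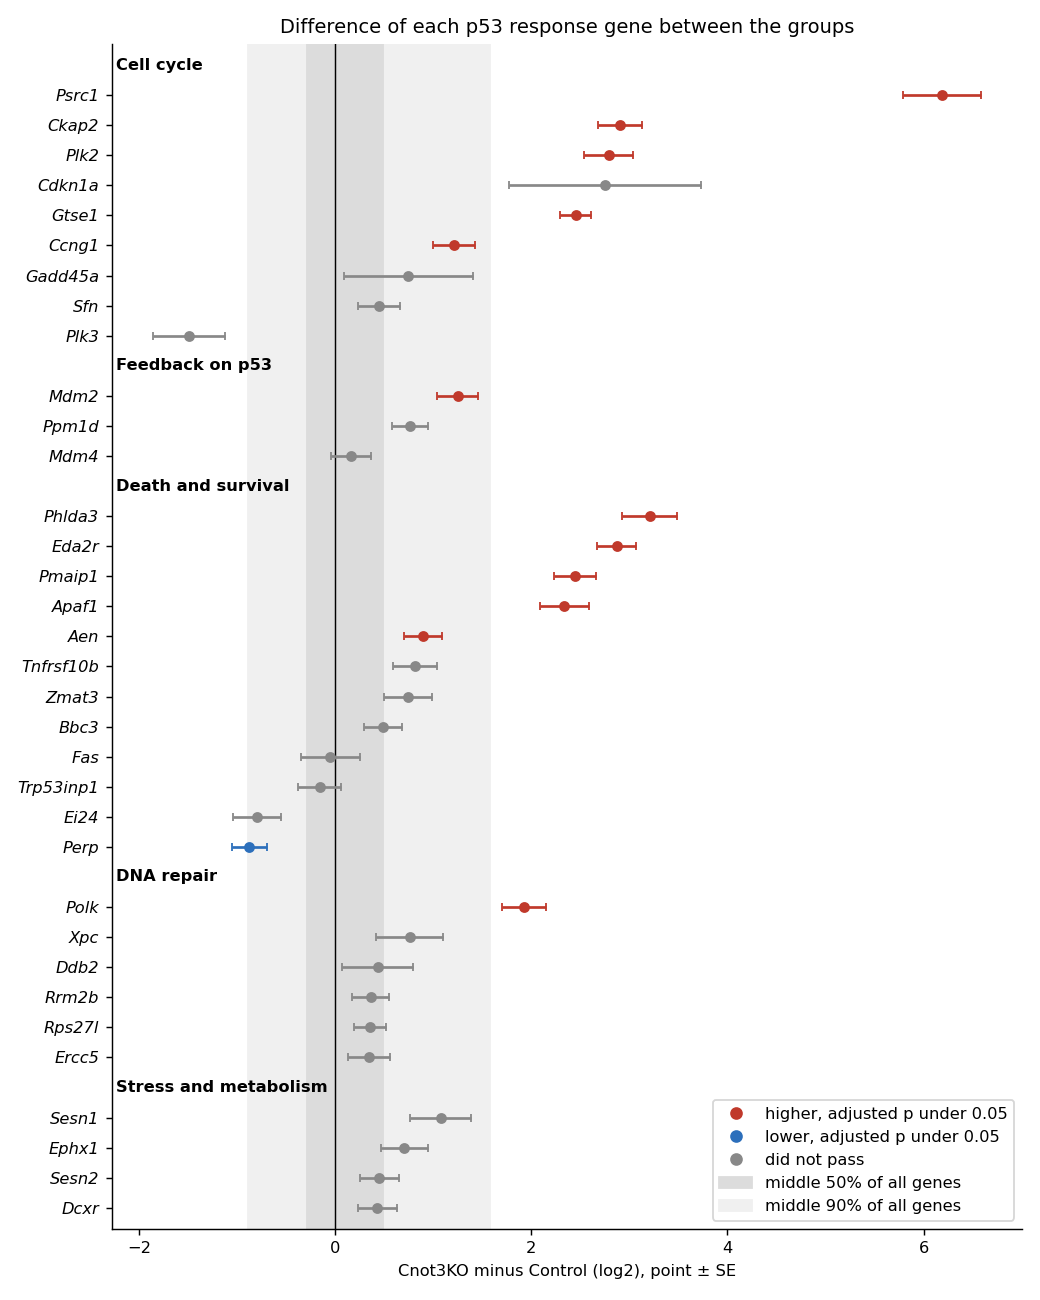
Difference between Cnot3KO and Control for each of the 34 genes on the log2 scale, with its SE (n = 2 per group). Red and blue points passed at a limma adjusted p under 0.05, grey points did not, and the shaded bands hold the middle 50% and 90% of all 16758 genes tested. Psrc1 lies farthest right at 6.19, and the cell cycle group has the highest median.

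Genes of cell cycle arrest and of the spindle had the highest median difference among the role groups. Of 9 measured, 5 were higher (55.6%, against 12.2% of all genes), 0 were lower, and the median difference was 2.45. Psrc1 encodes a spindle protein that binds microtubules. Its levels were 2.98 and 2.46 in Control against 9.44 and 8.37 in Cnot3KO, a difference of 6.19 ± 0.40 (adjusted p = 0.0042). Both Control levels lay under the medians of their arrays, 3.11 and 3.14. Without detection calls it is not known whether this probe set was above background there, so that the size of its difference is uncertain. The same holds for the probe sets of Eda2r and Pmaip1 of the death group. A second probe set of Psrc1 read 4.29 and 3.59 in Control against 7.50 and 6.97 in Cnot3KO, a difference of 3.29, so that the size of the rise depended on the probe set.

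Ckap2 encodes a protein of the mitotic spindle poles. It stood at 4.04 and 3.76 in Control and at 6.59 and 7.02 in Cnot3KO, higher by 2.90 ± 0.22 (adjusted p = 0.0048). Gtse1, a microtubule-binding protein that carries p53 out of the nucleus, was at 4.00 and 3.89 in Control and at 6.40 and 6.39 in Cnot3KO, higher by 2.45 ± 0.16 (adjusted p = 0.0042). The groups did not overlap for Psrc1, Ckap2 or Gtse1. Each is also a gene of dividing cells, and genes of cell division rose on the same arrays. Of 19 such genes measured, 16 were higher (84.2%, against 12.2% of all genes) and 0 lower, with a median difference of 2.43. Their summed linear intensity was 268 to 400 in Control and 1423 to 2112 in Cnot3KO. The part of dividing cells in the rise of Psrc1, Gtse1 and Ckap2 was not tested.

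Plk2 encodes a polo-like kinase that responds to stress. It read 5.79 and 5.19 in Control against 8.18 and 8.38 in Cnot3KO, a difference of 2.79 ± 0.25 (adjusted p = 0.0062). Its second, dimmer probe set differed by -0.03. Plk3, a kinase of the same family, went the other way. It stood at 7.17 and 6.15 in Control and at 4.995 and 5.351 in Cnot3KO, and its difference of -1.49 ± 0.36 did not pass (adjusted p = 0.0560). Without Control replicate 2 that difference was -2.00 and passed (adjusted p = 0.0341). Ccng1 encodes cyclin G1, which brings a phosphatase to Mdm2. Levels of 6.86 and 6.59 in Control and of 8.14 and 7.73 in Cnot3KO made it higher by 1.21 ± 0.22 (adjusted p = 0.0261). All 3 of its probe sets were called, with differences from 0.84 to 1.67. Its main probe set lost the call without Control replicate 1 (adjusted p = 0.0707), without Control replicate 2 (0.0819) and without Cnot3KO replicate 1 (0.116).

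Cdkn1a encodes p21, the inhibitor of cyclin-dependent kinases through which p53 halts division. Its levels were 5.22 and 8.38 in Control against 9.71 and 9.39 in Cnot3KO. Both Cnot3KO arrays were above both Control arrays, but the Control arrays themselves lay 3.16 apart. The difference of 2.75 ± 0.98 did not pass (adjusted p = 0.130). The second probe set showed the same split, with 4.82 and 8.10 in Control against 8.91 and 9.12 in Cnot3KO, a difference of 2.56 (adjusted p = 0.160). A gap of more than 3 between the Control arrays was found for 20 of 16758 genes (0.119%), a size chosen after the value of Cdkn1a was seen. Without Control replicate 1 the difference was 1.17 (adjusted p = 0.0733), and without Control replicate 2 it was 4.33 and passed (adjusted p = 0.0293).

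The other cell cycle members did not pass. Gadd45a, a stress protein of growth arrest, read 3.95 and 2.44 in Control against 3.21 and 4.67 in Cnot3KO, with overlapping groups (adjusted p = 0.482). Sfn, which holds cells before mitosis, was below the array median on every array, at 1.91 and 2.41 in Control and at 2.64 and 2.58 in Cnot3KO (difference 0.45, adjusted p = 0.230).

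Of the 3 genes that feed back on p53, 1 rose (33.3%, against 12.2% of all genes). Mdm2 stood at 6.24 and 6.47 in Control and at 7.79 and 7.41 in Cnot3KO, higher by 1.25 ± 0.21 (adjusted p = 0.0210). A second probe set was higher by 1.14 and was also called. The call of the main probe set was lost without Control replicate 1 (adjusted p = 0.0844), without Control replicate 2 (0.0526) and without Cnot3KO replicate 1 (0.0974), with differences of 1.13, 1.36 and 1.06. Ppm1d encodes Wip1, a phosphatase that reverses damage signalling. It was at 4.58 and 4.66 in Control and at 5.23 and 5.54 in Cnot3KO, a difference of 0.76 ± 0.18 that did not pass (adjusted p = 0.0532), while its second probe set, at 0.73, did (adjusted p = 0.0422). Mdm4, the partner of Mdm2 that masks p53, showed no such separation. Its levels were 5.56 and 5.16 in Control against 5.55 and 5.49 in Cnot3KO (adjusted p = 0.620), and its 4 probe sets differed by -0.09 to 0.29.

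The death and survival group held 12 measured genes, with a median difference of 0.78. Of these 5 were higher (41.7%, against 12.2% of all genes) and 1 was lower (8.33%, against 4.64%). Phlda3 encodes a small protein that blocks the survival kinase Akt. Its Control arrays read 4.37 and 4.36 and its Cnot3KO arrays 7.96 and 7.18, a difference of 3.21 ± 0.28 (adjusted p = 0.0060) and the highest of the group. Eda2r, a receptor of the tumour necrosis factor family, was at 2.69 and 2.63 in Control and at 5.73 and 5.34 in Cnot3KO, higher by 2.87 ± 0.20 (adjusted p = 0.0042). Both genes had Control arrays that lay within 0.1 of each other. Pmaip1 encodes Noxa, which binds and disables Mcl1. It read 2.53 and 2.17 in Control against 4.64 and 4.95 in Cnot3KO, higher by 2.44 ± 0.21 (adjusted p = 0.0059).

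Apaf1 encodes the scaffold of the apoptosome. It stood at 3.96 and 3.63 in Control and at 6.40 and 5.87 in Cnot3KO, higher by 2.34 ± 0.25 (adjusted p = 0.0084). Its dimmer probe set differed by 0.48 and was not called. Aen, a nuclease that digests DNA in dying cells, was at 5.52 and 5.28 in Control and at 6.43 and 6.16 in Cnot3KO, higher by 0.89 ± 0.19 (adjusted p = 0.0399). Of its 4 probe sets 2 were called and the dimmest differed by -0.13. The call on Aen was lost whichever array was left out, with an adjusted p from 0.0819 to 0.203.

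Perp, a membrane protein that p53 induces in dying cells and that also belongs to desmosomes, was the member that fell. It read 9.002 and 8.873 in Control against 8.19 and 7.94 in Cnot3KO, and it fell by 0.87 ± 0.18 (adjusted p = 0.0354). That call was also lost whichever array was left out, with an adjusted p from 0.0737 to 0.180. Ei24, a membrane protein of the endoplasmic reticulum, lay lower as well, at 9.34 and 9.17 in Control and at 8.75 and 8.17 in Cnot3KO, and did not pass (difference -0.80, adjusted p = 0.0920).

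The remaining death genes gave no call. Bbc3, which encodes Puma, read 5.34 and 5.20 in Control against 5.58 and 5.94 in Cnot3KO (difference 0.49, adjusted p = 0.164). The death receptor gene Fas overlapped between the groups, at 5.99 and 6.84 in Control and at 6.31 and 6.42 in Cnot3KO (difference -0.05, adjusted p = 0.928). Tnfrsf10b, another death receptor, was below the array median on every array, at 1.87 and 2.19 in Control and at 3.05 and 2.64 in Cnot3KO (difference 0.81, adjusted p = 0.0712). Both Cnot3KO arrays were above both Control arrays for Bbc3 and Tnfrsf10b but not for Fas. Zmat3, which encodes an RNA-binding zinc finger protein, was at 4.62 and 4.54 in Control and at 5.62 and 5.01 in Cnot3KO (difference 0.74, adjusted p = 0.112). Trp53inp1, a stress protein, was at 9.33 and 9.41 in Control and at 9.46 and 8.97 in Cnot3KO (difference -0.16, adjusted p = 0.659). Among the apoptosis genes, the BH3-only gene Pmaip1 thus passed and the BH3-only gene Bbc3 did not, and the difference between them was not tested.

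Of 6 DNA repair genes 1 was higher (16.7%, against 12.2% of all genes) and 0 were lower, with a median difference of 0.40. Polk encodes a polymerase that copies past damaged bases. It was at 4.67 and 4.42 in Control and at 6.70 and 6.24 in Cnot3KO, higher by 1.93 ± 0.22 (adjusted p = 0.0097), and its second probe set was also called. The other repair genes differed by 0.35 to 0.76 and did not pass. Xpc, which finds bulky DNA lesions, read 5.71 and 5.18 in Control against 6.63 and 5.78 in Cnot3KO (adjusted p = 0.203). Ddb2, which finds lesions made by ultraviolet light, overlapped between the groups, at 4.81 and 3.78 in Control and at 4.85 and 4.60 in Cnot3KO (adjusted p = 0.454). Its second probe set did not overlap, at 4.37 and 4.08 in Control and at 4.73 and 4.68 in Cnot3KO. That difference of 0.48 did not pass either (adjusted p = 0.142). Ercc5, the nuclease that cuts out such lesions, differed by 0.35 (adjusted p = 0.323).

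Rrm2b encodes the p53-dependent subunit of ribonucleotide reductase, which makes DNA building blocks. Its main probe set differed by 0.36 (adjusted p = 0.266), while 1 of its dimmer probe sets was higher by 0.85 and was called (adjusted p = 0.0472). Rps27l encodes a ribosomal protein of the small subunit. It stood at 11.06 and 11.07 in Control and at 11.34 and 11.49 in Cnot3KO, above on both arrays, and its difference of 0.35 did not pass (adjusted p = 0.211). Its probe set may also take up transcripts of close relatives such as Rps27, as its suffix for shared probes shows. Its level is thus uncertain. A probe set of Rps27l without that suffix read 10.99 and 11.01 in Control against 11.22 and 11.24 in Cnot3KO (difference 0.23, adjusted p = 0.370).

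The 4 metabolic members all lay above Control on both arrays, as did 34.8% of all genes. Limma called 0 of them, while 2 were higher at an unadjusted p under 0.05, as were 3842 of all 16758 genes. Sesn1, a sestrin that restrains the growth kinase mTOR, read 5.76 and 5.69 in Control against 7.24 and 6.36 in Cnot3KO (difference 1.08 ± 0.31, adjusted p = 0.0834). Without Cnot3KO replicate 2 its difference was 1.52. The 4 probe sets of Sesn1 differed by -0.08 to 1.11 over all arrays, and 0 of them were called. Sesn2, the related sestrin, was at 6.30 and 5.97 in Control and at 6.71 and 6.46 in Cnot3KO (adjusted p = 0.198). Both sestrins were higher on Cnot3KO replicate 1 than on replicate 2. Ephx1, a microsomal hydrolase that detoxifies epoxides, was at 10.91 and 10.46 in Control and at 11.57 and 11.21 in Cnot3KO (difference 0.71, adjusted p = 0.114). Dcxr, which reduces sugars and dicarbonyls, was at 9.41 and 9.70 in Control and at 9.84 and 10.12 in Cnot3KO (difference 0.43, adjusted p = 0.215).

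**Figure D3:**
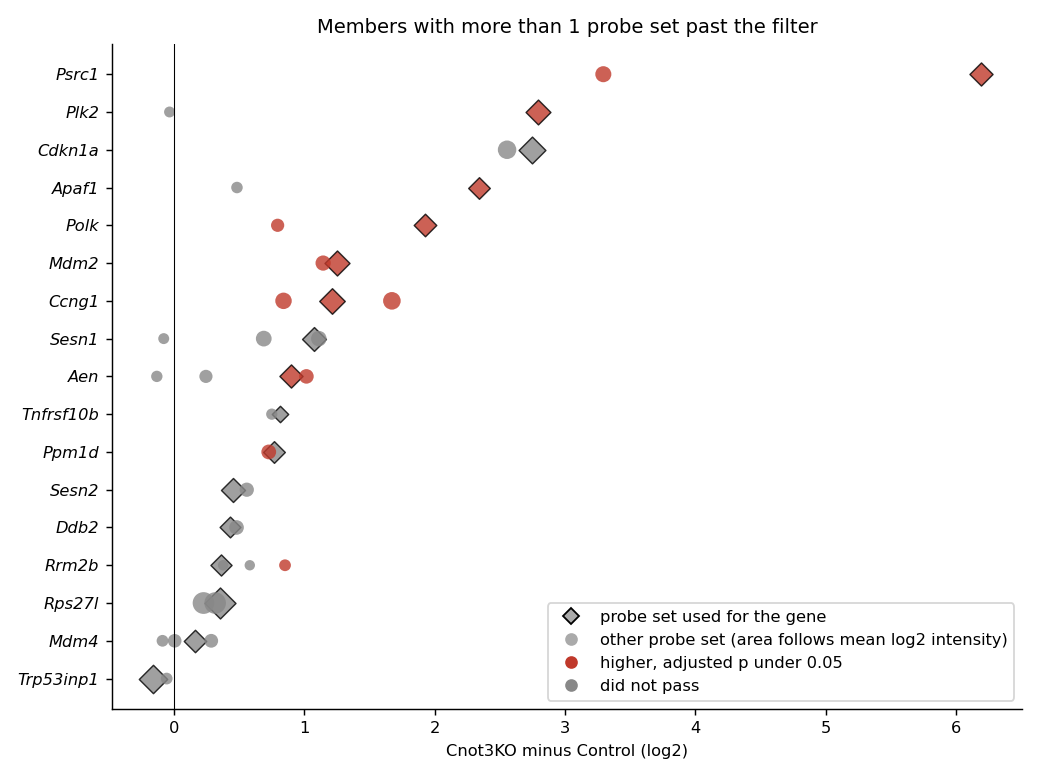
Difference between Cnot3KO and Control (log2) for each probe set of the members that have more than 1 past the filter. Diamonds are the probe sets used for the genes, circles the others with an area that follows mean intensity, and red marks an adjusted p under 0.05. All 3 probe sets of Ccng1 and both of Mdm2 and Polk are red, while those of Plk2, Apaf1, Aen, Ppm1d and Rrm2b are split.

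Within each group the livers also differed. On Cnot3KO replicate 1 the p53 response genes were higher than on Cnot3KO replicate 2 for 24 of 34 genes (70.6%), against 51.8% of all genes, with a median gap of 0.26 against 0.01 for all genes. Psrc1 was apart by 1.07, Sesn1 by 0.89, Xpc by 0.85 and Phlda3 by 0.77 in that direction. Higher on replicate 2 were Gadd45a, Ckap2, Plk3, Plk2, Pmaip1, Bbc3, Ppm1d, Fas, Rps27l and Dcxr. The genes of cell division ran the other way, with 0 of 19 higher on Cnot3KO replicate 1. Also higher on Cnot3KO replicate 1 were 8 of 9 bile duct, 8 of 10 stellate cell and 6 of 8 neutrophil markers. For endothelial markers it was 6 of 10 and for hepatocyte markers 4 of 11. For lymphocyte, macrophage and erythroid markers it was 3 of 10, 2 of 12 and 1 of 7. The direction was thus not particular to the p53 response genes. Between the Control livers 25 of 34 p53 response genes were higher on replicate 1 (73.5%), against 48.3% of all genes, with a median gap of 0.16. There the genes of cell division ran the same way, with 13 of 19 higher on Control replicate 1 (68.4%) and a median gap of 0.51. Among the p53 response genes Cdkn1a was the widest exception, lower by 3.16 on Control replicate 1. With 2 livers in a group these gaps are descriptions of single livers.

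**Figure D4:**
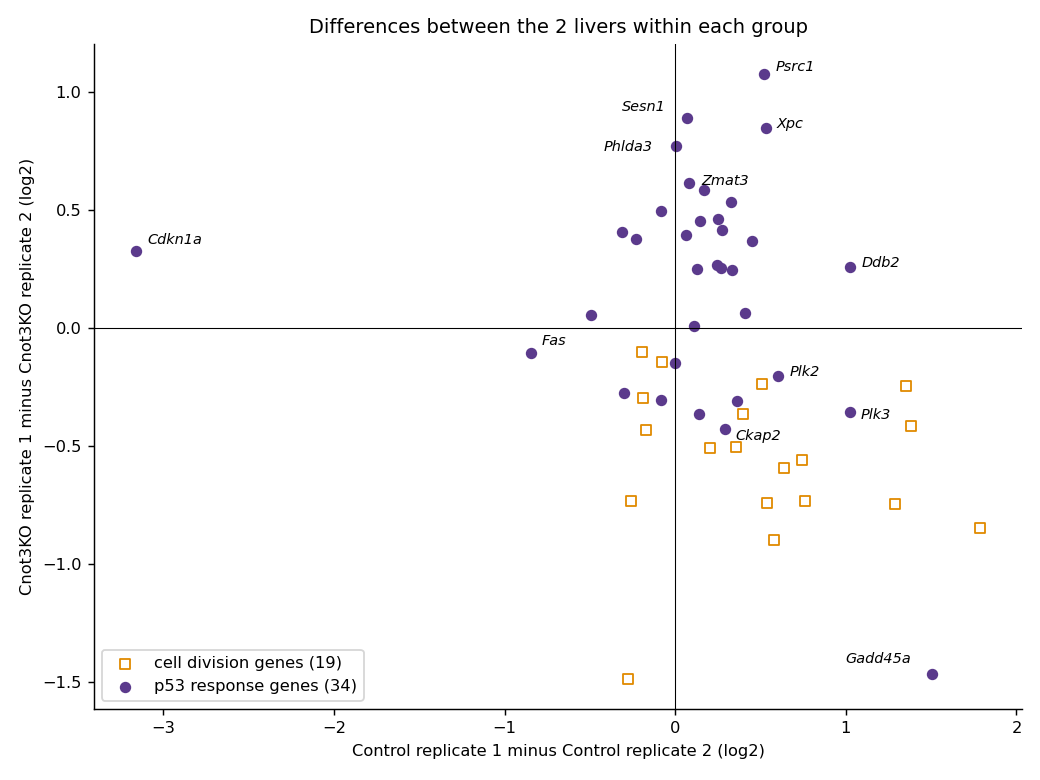
Difference between the livers of each group on the log2 scale, with Control replicate 1 minus replicate 2 across and Cnot3KO replicate 1 minus replicate 2 upwards, for 34 p53 response genes (filled) and 19 cell division genes (open squares). Most p53 response genes lie above the horizontal line and all 19 cell division genes below it, and Cdkn1a stands alone on the left, 3.16 from the vertical line.

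A wider list of 36 other p53 targets gave 34 measured genes, of which 7 were higher (20.6%, against 12.2% of all genes) and 4 lower (11.8%, against 4.64%), with a median difference of 0.35. Btg2, an antiproliferative protein that binds the Ccr4-Not deadenylases, stood at 5.56 and 6.59 in Control and at 9.34 and 9.89 in Cnot3KO, higher by 3.54 ± 0.39 (adjusted p = 0.0090). The peptide transporter Tap1 was higher by 2.06, the death protein Siva1 by 1.89, the nuclear body protein Pml by 1.49, the kinase subunit Prkab1 by 1.26 and Abhd4 by 1.10. Lower were the repressor Bcl6 (-2.28), the growth factor carrier Igfbp3 (-1.55), the autophagy protein Trp53inp2 (-1.37) and the thiamine transporter Slc19a2 (-0.89). Pcna, the replication clamp, was at 8.45 and 8.33 in Control and at 9.28 and 10.17 in Cnot3KO (difference 1.33, adjusted p = 0.0517).

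Among kinases and regulators that act on p53, 29 were measured. Of these 6 were higher (20.7%, against 12.2% of all genes) and 1 was lower (3.45%, against 4.64%), with a median difference of 0.08. Higher were the DNA break protein Trp53bp1 (1.99), the checkpoint kinases Chek1 (1.80) and Chek2 (0.86), the p53 cofactors Ppp1r13b (1.78) and Trp53bp2 (1.01), and the methyltransferase Prmt5 (1.30). Cop1, a ubiquitin ligase for p53, was lower (-0.89). The damage kinases did not pass, with a difference of -0.36 for Atm (adjusted p = 0.198) and of -0.24 for Atr (adjusted p = 0.526). Of 5 survival genes of the Bcl2 family 1 was higher (20%, against 12.2% of all genes). It was Mcl1, which Noxa binds, at 8.09 and 8.31 in Control and at 9.36 and 9.14 in Cnot3KO (difference 1.05 ± 0.18, adjusted p = 0.0241). Bcl2 differed by 0.98 and Bcl2l1 by 0.23, and neither passed (adjusted p = 0.0649 and 0.592).

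**Figure D5:**
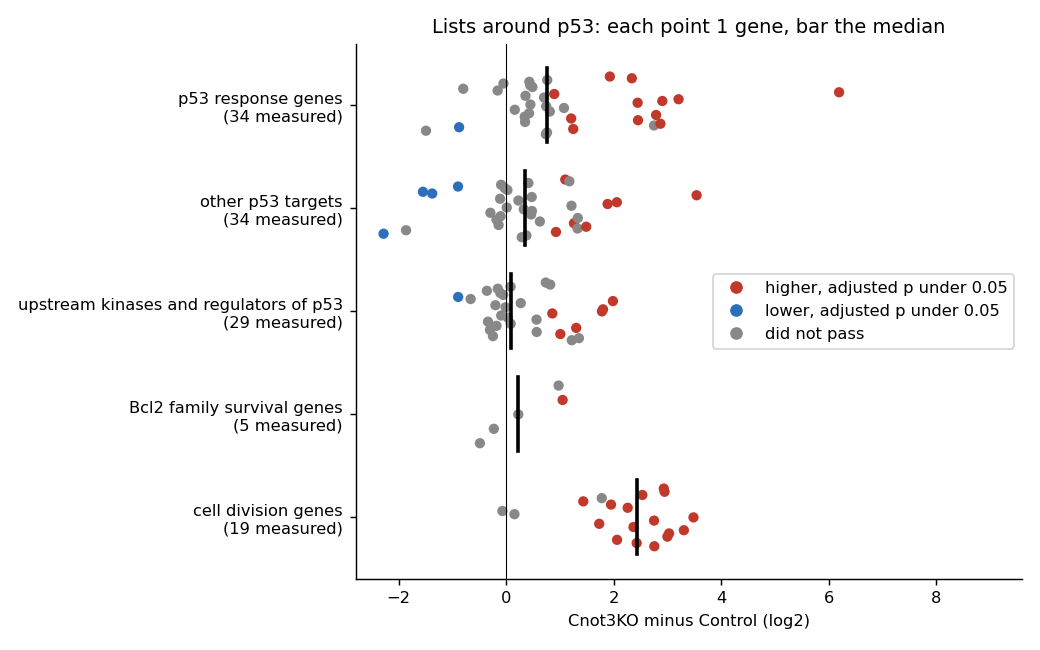
Difference between Cnot3KO and Control (log2) of each measured gene in the p53 response list, the other p53 targets, the regulators of p53, the Bcl2 family survival genes and the cell division genes, with the median of each list as a bar. Red and blue points passed at an adjusted p under 0.05. The medians are 0.75, 0.35, 0.08, 0.23 and 2.43 in that order.

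Markers of some cells other than hepatocytes were called on the same arrays, and 12.2% of all genes were higher and 4.64% lower. Of 9 bile duct and progenitor markers 5 were higher, and their summed linear intensity was 150 to 237 in Control and 932 to 1312 in Cnot3KO, with Cftr below the array median on every array. Of 12 macrophage markers 4 were higher, with sums of 2242 to 2244 and of 3706 to 4461, and Itgam was below the array median throughout. Of 10 stellate cell and fibroblast markers 7 were higher, with sums of 1842 to 2270 and of 4473 to 5972. Of 8 neutrophil markers 2 were higher, with sums from 89.3 to 89.9 and from 136 to 202 and with Mpo and Mmp8 below the array median on every array. Of 10 lymphocyte markers the 1 that was higher was Ptprc, which all leukocytes make, and the median difference was -0.14. Their sums were 178 to 193 and 250 to 275, or 94.0 to 102 and 86.9 to 105 without Ptprc, with Cd79a and Ms4a1 below the array median. Endothelial markers gave 0 calls of 10 in limma and 0 at an unadjusted p under 0.05, with sums of 908 to 1091 and of 940 to 1007. Erythroid markers gave 3 lower of 7, Alas2, Klf1 and Car1, with Hba-a1 below the array median. Their sums were 803 to 984 and 528 to 1055, or 469 to 506 and 93.2 to 146 without Tfrc, the transferrin receptor, which other cells also use. These genes were left out of the sums after the values were seen, each as the gene with the highest summed intensity in its list, and the same step kept the groups apart for the bile duct, macrophage, stellate cell, neutrophil and cell division lists. The part of these cells in the levels of the p53 response genes was not tested.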

How the data were processed

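RNA from 4 whole livers was measured on an Affymetrix mouse expression array. The deposited table holds linear intensities, 1 per probe set, which the authors obtained by Robust Multi-array Average (RMA, version not stated). They were turned to log2 with no constant added. It is not stated whether RMA was run on further arrays at the same time. Probe sets above percentile 20 on 1 or more arrays were kept (38405 of 45037). By the platform's gene annotation 34945 probe sets name 1 gene, 932 several and 9160 none. Each gene was represented by its kept probe set with the highest mean among those naming it alone.

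Groups were compared with lmFit and eBayes (limma 3.58.1, R 4.3.3), 2-sided, with 5.40 total and 3.40 prior degrees of freedom and a median SE of 0.192. P was adjusted by Benjamini-Hochberg over all kept probe sets, and an adjusted p under 0.05 was a call. The fit was tested on simulated data. The number of arrays limits the precision, and the labels name single mice but no litters. P-values rest on the spread between these livers, moderated by a prior from all kept probe sets. The SE of a gene is thus not its own spread alone. No detection calls were used. Promoter sequences were from RefSeq. Python 3.11.15 with pandas 2.3.3, numpy 2.4.6 and matplotlib 3.10.9 made the counts and figures.

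All 36 members were accounted for, and array values were given for those that were called and those that a result turns on. Of the other lists up to 6 called genes each way were named, and any further gene was chosen with its values in view. The members, lists and tests were chosen with earlier results of these data known. Alternatives covered the filter, scaling, probe set choice, prior, replicate block, the methods' t-test and each array left out.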

Additional observations from a re-analysis of the deposited data

How the results depend on the processing

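Of the 13 calls among the p53 response genes, all were kept without a filter, with array medians centred, without probe sets of shared probes and in a paired fit with the replicate block. Under the replicate block 12 were higher and 1 lower, and 9 other targets and 5 regulators were higher. Same-numbered arrays deviated together with a correlation of 0.232, which over 2 pairs does not show that the numbers pair the livers. Aen lost its call on quantile normalization again, on centring on ribosomal protein genes, with probe sets averaged per gene and with a prior that follows intensity. The count of lower members was 2 with a mean above the 50th percentile, 2 on quantile normalization again, 3 on ribosomal centring and 2 with the mean of probe sets, since Plk3 passed in each and Ei24 under ribosomal centring (adjusted p = 0.0305). Ribosomal centring moved the median of all genes by -0.18 and that of the members to 0.57. Ppm1d passed in 3 limma alternatives and Tnfrsf10b in 1. The methods' t-test called 14 members higher, 1 lower and 3 regulators higher before adjustment and 0 members, 0 other targets and 0 regulators after it.

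With 1 array left out, where the lone array is assumed to vary like the other group, 9 to 12 members were higher, 0 to 1 lower, 2 to 5 other targets higher (2 without Control replicate 1, 3 without Cnot3KO replicate 2) and 2 to 4 regulators higher (2 without Cnot3KO replicate 1, 3 without Control replicate 2 or Cnot3KO replicate 2), and the median of the members was 0.62 to 0.95. Signs turned for 5 members that were not called. Mdm4 was at -0.049 on quantile normalization again, at -0.021 on ribosomal centring and at -0.042 without Control replicate 2. Without Control replicate 2 Gadd45a was at -0.0067, Ddb2 at -0.082 and Fas at 0.373. Fas was at 0.0035 without Cnot3KO replicate 1, and Trp53inp1 at 0.090 without Cnot3KO replicate 2. The far ends over the arrays left out were 0.364 for Mdm4, 1.497 for Gadd45a, 0.945 for Ddb2, -0.472 for Fas and -0.405 for Trp53inp1. The cause of these changes was not tested.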
